A study of Mus musculus with 11 samples.

Results

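The adenylate kinase genes described here are 7 of the 23074 genes in the count table, namely Ak1, Ak3, Ak4, Ak5, Ak7, Ak8 and Ak9. They are the rows whose Ensembl identifier carries one of these symbols in the GENCODE M21 annotation of GRCm38, a rule that uses gene names and no threshold on a value. RNA was extracted from decapsulated testis of 5 wild type and 6 Rfx2-/- mice at postnatal day 21. The labels give all mice a mixed C57BL/6, 129/Sv and FVB/N background. Rfx2-/- mice lacked exon 7 of Rfx2, a transcription factor of the RFX family, in every tissue, since the deletion was made with the ubiquitous ACTB-cre transgene and passed through the germline. The line that the study kept on a mixed background carried a neo cassette at this allele, which the labels do not mention. Mice are numbered 1 to 5 for wild type and 6 to 11 for Rfx2-/-, as in the labels. Total counts lay between 22232097 and 29769483 reads per mouse, and the 7 genes had between 99 and 4131 reads in each mouse. In whole testis, fewer cells of a type and less RNA per cell cannot be told apart.

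Adenylate kinases move a phosphoryl group between ATP and AMP, so that ADP left by ATP-consuming enzymes can be used again and AMP reports on the energy state of the cell. Family members differ in where they work. AK7 and AK8 are found in the axonemes of motile cilia and sperm flagella, the microtubule core whose dynein motors consume ATP, and loss of either affects ciliary function. AK1 and AK5 are cytosolic, AK1 being prominent in muscle and AK5 in brain. AK3 and AK4 lie in the mitochondrial matrix, where AK3 uses GTP in place of ATP and AK4 has little catalytic activity. AK9 is a large protein with several kinase domains that accepts nucleoside mono- and diphosphates. RFX factors bind X-boxes, short imperfect palindromes in the promoters of many ciliary genes.

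Neither axonemal gene was called different between the genotypes. Ak5 was the single gene of the 7 called different, at 2.01-fold higher in Rfx2-/- testis. Ak1 was 4.01-fold lower on average and did not reach the limit set here, an adjusted p of at most 0.01 by edgeR's quasi-likelihood test, Benjamini-Hochberg adjusted. Ak9 lay between them at 1.47-fold lower, also short of the limit. Of all 15745 genes tested, 1.94% were called lower and 0.730% higher, beside 0 and 1 of the 7 adenylate kinase genes. At an unadjusted p under 0.05, 1 of the 7 was lower and 1 higher, where 23.7% and 18.1% of all genes were. DESeq2 called 1 lower and 1 higher (5.74% and 7.16% of all genes), and limma voom called 2 lower and 1 higher (4.33% and 2.33%).

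Markers of germ cell maturity were measured in the same libraries and varied between mice of one genotype. The summed level of 6 pachytene spermatocyte markers was 3219 and 3150 CPM (counts scaled to TMM-adjusted library sizes) in wild type mice 3 and 5, whereas it was between 6139 and 7987 CPM in the other 9 mice. Sums of 8 round spermatid markers ranged from 8.46 CPM in wild type mouse 5 to 407 CPM in wild type mouse 1, and from 23.7 CPM in Rfx2-/- mouse 8 to 482 CPM in Rfx2-/- mouse 7. edgeR called none of the 6 and none of the 8 by genotype. At an unadjusted p under 0.05, 2 pachytene markers were higher in Rfx2-/- testis, and DESeq2 and limma voom each called 1 of them higher, while all of these counts were 0 for the round spermatid markers. Sertoli cell markers summed to between 2196 and 3388 CPM in each library. All 6 Sertoli markers were below 0 in log2 fold change, with 0 called by edgeR, 5 at an unadjusted p under 0.05, 1 called lower by DESeq2 and 0 by limma voom. Of 5 Leydig cell markers 1 was called lower, Hsd3b1, at 72.7 to 109 CPM in wild type and 42.0 to 60.1 CPM in Rfx2-/- testis. At an unadjusted p under 0.05, 3 of 3 endothelial and 4 of 6 spermatogonial markers were lower, and edgeR, DESeq2 and limma voom called 0 of them. The part of these marker levels in the adenylate kinase values was not tested. Epididymis and efferent duct markers summed to 276 CPM in wild type mouse 1 and to at most 69.5 CPM in every other mouse, and 262 of the 276 CPM were Crisp1. Reads over all exons of Rfx2 (191 to 472 CPM in wild type, 282 to 324 CPM in Rfx2-/- testis) do not show whether exon 7 is covered, so the labels could not be checked with this gene.

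Ak7 (ENSMUSG00000041323) occupies chr12:105705976-105782447 of GRCm38 on the plus strand, and its merged coding-transcript exons span 3099 nt. Ak8 (ENSMUSG00000026807) lies at chr2:28700164-28813165, also on the plus strand, with 1567 nt of exons. Ak9 (ENSMUSG00000091415) covers chr10:41303980-41434534 on the plus strand with 6968 nt of exons. The sequences below are the RefSeq promoters of these genes from GRCm38.p6, given 5′ to 3′ because RFX2 is a DNA-binding factor and the members differ here. The Ak7 window is chr12:105705732-105705981 and the Ak8 window chr2:28699911-28700160, each 250 bases that end just before the RefSeq start. The Ak9 window, chr10:41303684-41303936, is 253 bases long and runs 3 bases past the start. Capitals in the last line mark the match to a full X-box, taken as the letters GT, CC, GG and AC in this order with any 2 bases between each.
Ak7: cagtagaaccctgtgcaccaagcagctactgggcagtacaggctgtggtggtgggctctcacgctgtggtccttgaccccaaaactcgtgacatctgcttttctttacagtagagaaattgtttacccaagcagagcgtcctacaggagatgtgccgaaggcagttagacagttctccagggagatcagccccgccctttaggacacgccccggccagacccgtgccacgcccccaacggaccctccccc
Ak8: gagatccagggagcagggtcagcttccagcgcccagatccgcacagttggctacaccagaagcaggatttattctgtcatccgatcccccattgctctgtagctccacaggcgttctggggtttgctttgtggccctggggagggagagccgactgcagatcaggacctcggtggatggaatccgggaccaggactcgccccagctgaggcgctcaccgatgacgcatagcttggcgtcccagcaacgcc
Ak9: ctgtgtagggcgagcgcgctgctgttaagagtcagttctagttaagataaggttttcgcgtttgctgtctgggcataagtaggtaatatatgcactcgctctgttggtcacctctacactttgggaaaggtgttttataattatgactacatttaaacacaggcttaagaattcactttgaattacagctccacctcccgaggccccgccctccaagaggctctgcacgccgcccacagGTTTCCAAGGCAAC

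Of these 3 sequences only that of Ak9 held a full X-box form, at positions -11 to 3 relative to its RefSeq start, with position 1 as the first transcribed base. Searched on both strands over 300-base windows, the full form occurred in 618 of 32851 RefSeq promoters (1.88%) and a form with only 1 base between CC and GG in 333 (1.01%). The X-box half-site GTTGCC occurred in 4111 windows (12.5%). The 4 windows of Ak1 held no full form, but 2 of them held 5 half-sites in all. The half-site of the Ak9 window overlapped its full form. In the Ak7 and Ak8 windows none of the 3 sets of letters was found, nor was it in the windows of Ak3 and Ak4, and Ak5 had no window. A match describes the letters, not a bound site, and half-sites with other letters were not searched.

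Ak7, the axonemal member with the more even level, had 117, 90.2, 57.1, 94.7 and 42.2 CPM in wild type mice 1 to 5. In Rfx2-/- testis its lowest, median and highest values were 89.4, 109 and 124 CPM. The 2 lowest values were those of wild type mice 3 and 5, and 5 of the 6 Rfx2-/- mice fell within the wild type range. The means of 80.2 ± 30.1 CPM (SD, n = 5) and 107 ± 13.2 CPM (SD, n = 6) differed by 0.42 on the log2 scale (standard error 0.23, 95% interval -0.08 to 0.92, adjusted p = 0.174 by edgeR's quasi-likelihood test, Benjamini-Hochberg adjusted). Across mice, Ak7 followed the pachytene marker sum, as the plot of levels against marker sums shows. Without wild type mice 3 and 5 the log2 difference was 0.10 (adjusted p = 0.652 from the same test).

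Ak8 varied more. Its values were 145.5, 98.6, 39.0, 87.8 and 35.3 CPM in wild type mice 1 to 5, with a lowest, median and highest value of 54.2, 70.6 and 113 CPM in Rfx2-/- testis. Every Rfx2-/- mouse lay within the wild type range, whose ends were 4.13-fold apart. The highest mouse of each genotype, wild type 1 and Rfx2-/- 7, was also the highest in round spermatid markers. Means were 81.2 ± 45.8 CPM (SD, n = 5) and 75.2 ± 22.5 CPM (SD, n = 6), a log2 fold change of -0.11 (standard error 0.36, 95% interval -0.90 to 0.68, adjusted p = 0.823 by edgeR's quasi-likelihood test, Benjamini-Hochberg adjusted). This interval does not exclude a change of nearly 2-fold in the lower direction, or a somewhat smaller one in the higher direction. What size of difference these mice could detect was not computed. The sign depended on wild type mouse 1, without which the log2 fold change was 0.21. Without wild type mice 3 and 5, chosen after the values were seen, it was -0.55 (adjusted p = 0.197 from the same edgeR test). Limma voom gave -0.34 and the edgeR fit with the round spermatid covariate -0.23, and neither called Ak8.

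**Figure D1:**
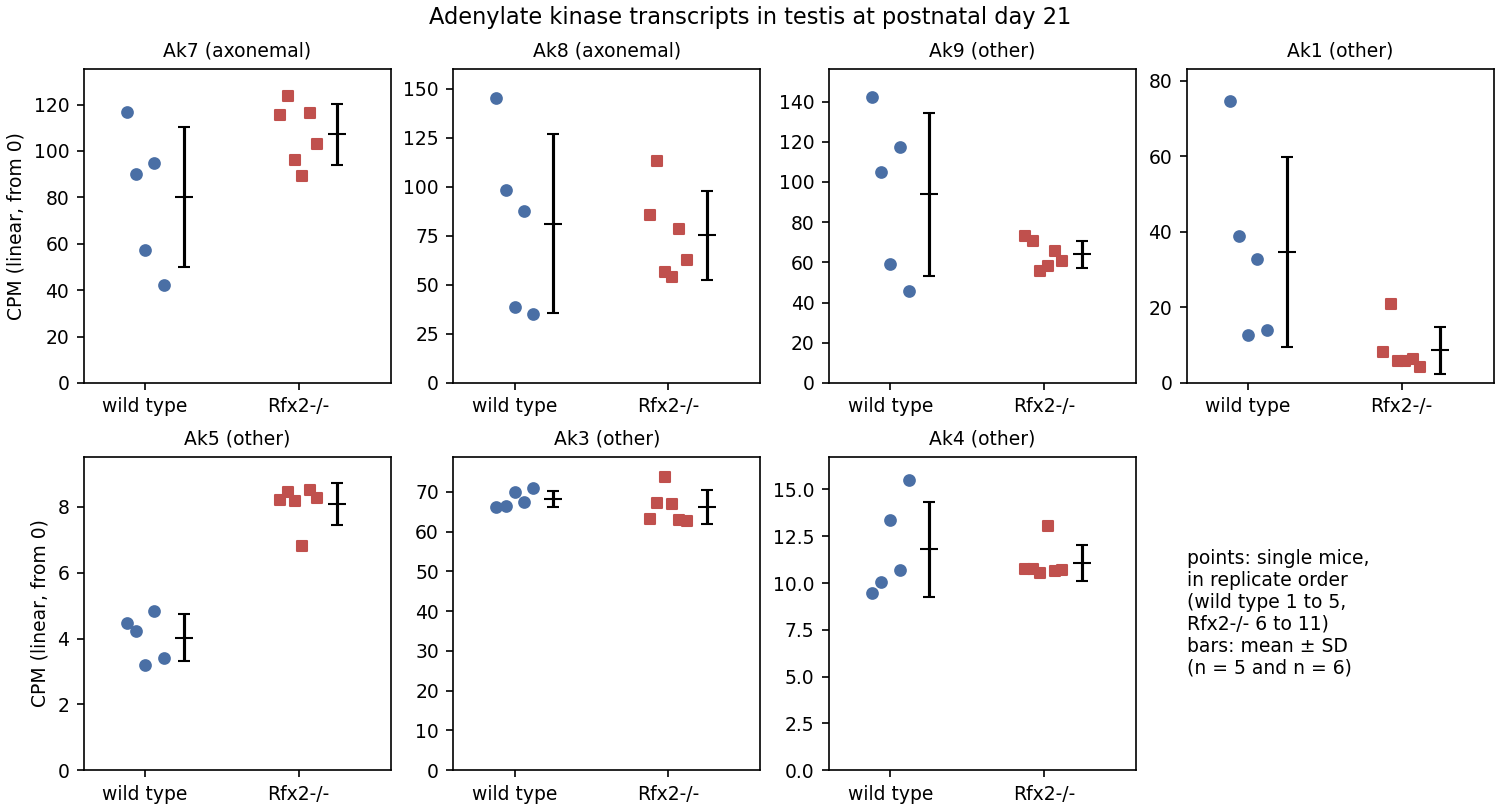
Levels of the 7 adenylate kinase genes in each mouse, as CPM on linear axes that start at 0, with wild type mice as circles and Rfx2-/- mice as squares in replicate order. Bars give mean ± SD; Ak5 is the one gene in which all Rfx2-/- mice lie above all wild type mice, and in Ak1 5 of 6 lie below them.

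Within single mice the axonemal pair did not keep a fixed proportion. Ratios of Ak7 to Ak8 counts ranged from 0.803 in wild type mouse 1 to 1.47 in wild type mouse 3, and from 1.09 to 1.70 in Rfx2-/- mice, so the genotypes overlapped. After each gene was centred on its mean over the 11 mice, the log2 levels of Ak7 and Ak8 differed by a root mean square of 0.35. On this measure Ak7 ranked 398 and Ak9 ranked 367 among the tested genes nearest to Ak8. Seen from Ak7, however, Ak8 ranked 3362 and Ak9 ranked 6131. The 3 genes nearest to Ak7 were Kctd19 (0.062), Shroom3 (0.063) and Nup210l (0.064), and those nearest to Ak8 were Wfdc3 (0.104), Fhad1 (0.122) and Jhy (0.125). These are likenesses over mice that also differ in the maturity markers.

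Genes beside the axonemal pair were examined for changes at the same loci. Gskip, 2952 nt to the left of Ak7, differed by 0.14 on the log2 scale (adjusted p = 0.103 by edgeR's quasi-likelihood test, Benjamini-Hochberg adjusted), and Papola, 2246 nt to the right, by 0.04 (adjusted p = 0.570). For Gskip all 6 Rfx2-/- mice (19.34 to 21.88 CPM) were above all wild type mice (17.86 to 19.31 CPM), a pattern of 6.50% of genes tested. Spaca9 lies 436 nt to the left of Ak8 on the opposite strand, and their RefSeq starts are 510 nt apart. Its level was between 2.84 and 33.1 CPM in wild type and between 0.601 and 20.1 CPM in Rfx2-/- testis, where 4 of 6 mice lay below all wild type mice (-1.38 on the log2 scale, SE 0.97, adjusted p = 0.282). Gtf3c4, a transcription factor subunit gene 9133 nt to the right of Ak8, was called higher (129 ± 20.9 CPM in wild type and 192.5 ± 8.90 CPM in Rfx2-/- testis, SD, adjusted p = 0.00583), a log2 difference of 0.58.

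Ak9 had a lower mean level in Rfx2-/- testis than in wild type. It had 142, 105, 59.2, 118 and 45.5 CPM in wild type mice 1 to 5, against a lowest, median and highest value of 55.5, 63.1 and 72.9 CPM in Rfx2-/- mice. Of the pair with low pachytene markers, wild type mouse 3 fell among the Rfx2-/- mice and wild type mouse 5 below them, and the other 3 wild type mice were above every Rfx2-/- mouse. The means were 93.9 ± 40.6 CPM (SD, n = 5) and 63.9 ± 6.94 CPM (SD, n = 6), which gave a log2 fold change of -0.56 (standard error 0.25, 95% interval -1.11 to 0.00, adjusted p = 0.121 by edgeR's quasi-likelihood test, Benjamini-Hochberg adjusted). Left without wild type mice 3 and 5, Ak9 was called lower with a log2 fold change of -0.92 (adjusted p = 0.000771), a setting chosen after the values were seen. Limma voom with sample quality weights also called it lower, at -0.72 (adjusted p = 0.00713).

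The ratio of Ak9 to Ak7 counts within a mouse does not depend on library scaling, and no value was shared between the genotypes. The same held for 7 of all 21 pairs of members, 4 of which include Ak5. The share over all pairs of tested genes was not computed, so this count is not read as a result about the members. The ratio was 1.22, 1.16, 1.04, 1.24 and 1.08 in wild type mice 1 to 5, and between 0.565 and 0.653 in the 6 Rfx2-/- mice. The lowest wild type mouse was therefore well above the highest Rfx2-/- mouse, with means of 1.15 ± 0.0884 (SD, n = 5) and 0.598 ± 0.0360 (SD, n = 6). Wild type mice 3 and 5 held the 2 lowest wild type ratios. Of all genes divided by Ak7 in the same way, 5.93% had every Rfx2-/- mouse below every wild type mouse, beside 2 of the 5 other adenylate kinase genes, Ak9 and Ak1. Divided by Ak8, 1.37% of all genes and 1 of these 5, Ak1, did so. These ratios were not tested further.

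**Figure D2:**
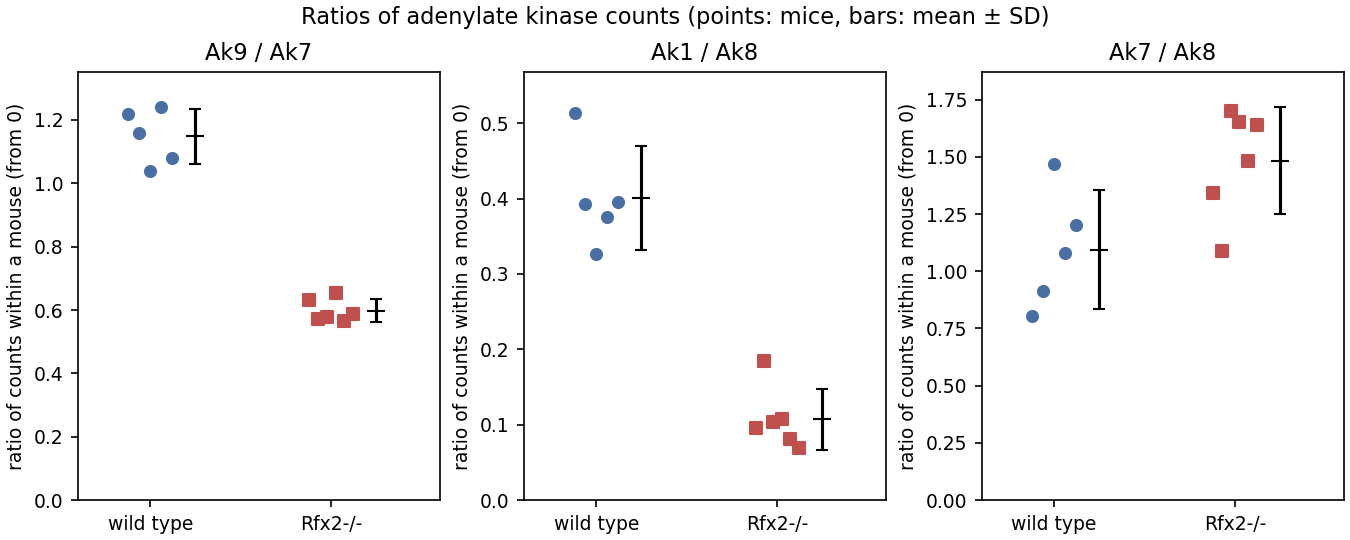
Ratios of counts between adenylate kinase genes within each mouse on linear axes from 0, with bars for mean ± SD (n = 5 and n = 6). Ak9 over Ak7 and Ak1 over Ak8 hold no value in common between genotypes, while Ak7 over Ak8 runs from 0.803 to 1.47 in wild type and from 1.09 to 1.70 in Rfx2-/- mice.

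Ak1 (ENSMUSG00000026817; chr2:32621758-32635058, plus strand, 2361 nt of exons) showed the largest fold difference of the 7 between genotypes. Its level was 74.7, 38.8, 12.7, 32.9 and 13.9 CPM in wild type mice 1 to 5, and 8.26, 20.9, 5.87, 5.87, 6.39 and 4.31 CPM in Rfx2-/- mice 6 to 11. Rfx2-/- mouse 7 lay within the wild type range and the other 5 were below every wild type mouse. Genes with all 6 below every wild type mouse made up 5.20% of those tested, beside 0 of the 7 adenylate kinase genes. The means were 34.6 ± 25.2 CPM (SD, n = 5) and 8.61 ± 6.17 CPM (SD, n = 6), a log2 fold change of -2.01 (standard error 0.53, 95% interval -3.18 to -0.83, adjusted p = 0.0344 by edgeR's quasi-likelihood test, Benjamini-Hochberg adjusted). At an adjusted p of at most 0.05 it would be called, where 8.78% of all genes were called lower. DESeq2 called it lower at 0.01 (log2 fold change -1.98, adjusted p = 0.00121), as did limma voom (-2.43, adjusted p = 0.000684) and the edgeR fit with the round spermatid score as a covariate (-2.24, adjusted p = 0.000164). Leaving out each of the 11 mice in turn, the log2 fold change lay between -2.49 and -1.51 and the adjusted p between 0.0156 and 0.0761.

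Ak1 is given next beside the round spermatid sum for mice with alike sums, which were set side by side after the values were seen and not tested. Wild type mouse 1 (407 CPM of these markers) had 74.7 CPM of Ak1, where Rfx2-/- mouse 7 (482 CPM of markers) had 20.9 CPM. Wild type mouse 2 and Rfx2-/- mouse 10, with marker sums of 99.2 and 119 CPM, had 38.8 and 6.39 CPM of Ak1. Wild type mouse 4, at 22.1 CPM of markers, had 32.9 CPM, and Rfx2-/- mice 8 and 9, at 23.7 and 25.4 CPM, had 5.87 CPM each. Alike sums did not mean alike single markers. In the order of these comparisons, Tnp1 was 43.4 against 28.9 CPM, 4.24 against 2.09 CPM, and 0.0701 against 0.185 and 0.267 CPM. Acrv1 was 61.9 against 112 CPM, 20.3 against 36.8 CPM, and 2.49 against 5.55 and 5.29 CPM. The mice were therefore not matched for spermatid maturity. Wild type mouse 1 had the highest Ak1 and also the highest sum of epididymis and efferent duct markers, 276 CPM. Elsewhere this sum, mostly Crisp1, was 69.5 CPM in wild type mouse 4, 64.0 CPM in Rfx2-/- mouse 9 and 17.8 CPM in wild type mouse 2. Single markers differed from the sum. Lcn8 was at 4.475 and 0.942 CPM in wild type mice 1 and 2 and at most 0.0568 CPM in the others. Lcn9 was at 2.36 and 0.370 CPM in these mice and at most 0.0435 CPM in the others. The muscle creatine kinase gene Ckm was at 5.88 CPM in wild type mouse 1 and at most 0.269 CPM elsewhere. The part of these genes in the Ak1 values was not tested. Without wild type mouse 1, Ak1 was still lower by a log2 fold change of -1.51 (adjusted p = 0.0343 by edgeR's quasi-likelihood test, Benjamini-Hochberg adjusted).

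**Figure D3:**
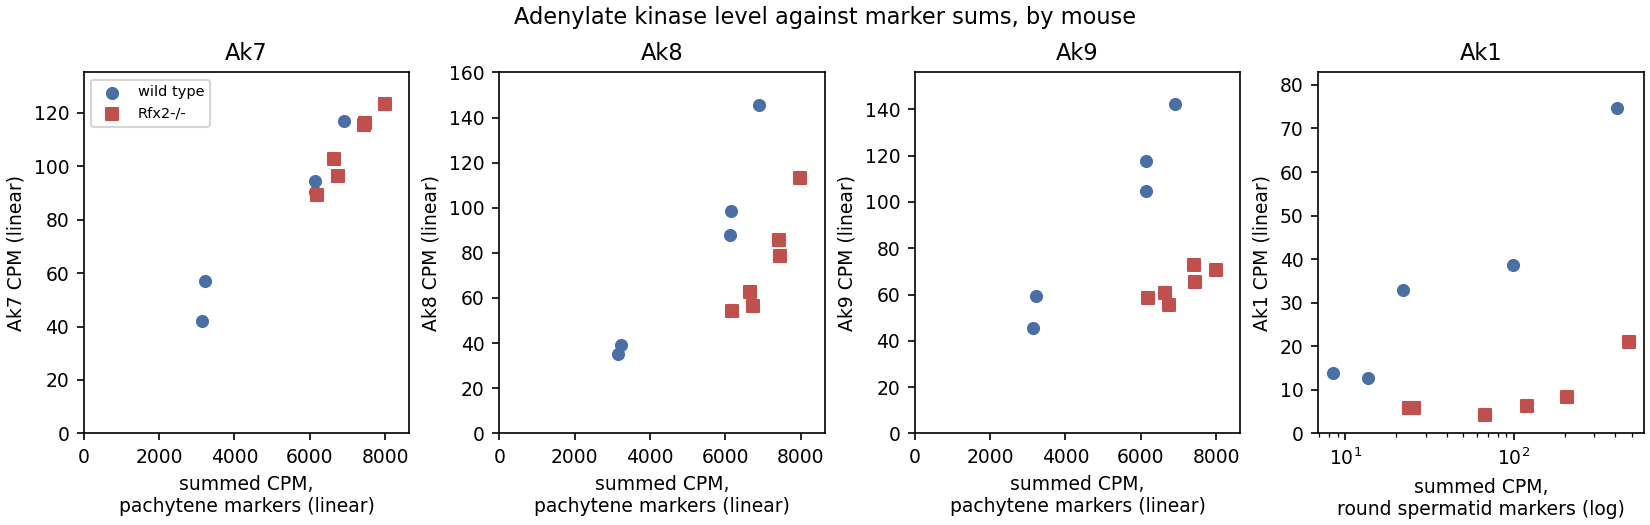
CPM of Ak7, Ak8 and Ak9 against the summed CPM of 6 pachytene spermatocyte markers, and of Ak1 against that of 8 round spermatid markers on a log axis, each point a mouse. Ak7 of both genotypes follows the pachytene sum, while Rfx2-/- mice lie below wild type mice 1, 2 and 4 for Ak9 and Ak1. Pachytene sums of Rfx2-/- mice 6, 7 and 10 (7427 to 7987 CPM) exceed every wild type sum (at most 6898 CPM). The mice were not matched for maturity. Ak8 is at 54.2 to 113 CPM in Rfx2-/- mice, all within the wild type range. In wild type mice 1, 2 and 4 it is at 87.8 to 145.5 CPM, and in wild type mice 3 and 5 at 39.0 and 35.3 CPM.

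Ak5 (ENSMUSG00000039058; chr3:152462815-152668360, minus strand, 3328 nt of exons) was the least abundant member in wild type testis and the one called higher in Rfx2-/- testis. Wild type mice 1 to 5 had 4.47, 4.24, 3.18, 4.84 and 3.40 CPM, and Rfx2-/- mice 6 to 11 had 8.22, 8.46, 8.18, 6.80, 8.52 and 8.27 CPM. All Rfx2-/- mice were above all wild type mice, a pattern found in 6.50% of the genes tested. The means of 4.03 ± 0.710 CPM (SD, n = 5) and 8.08 ± 0.639 CPM (SD, n = 6) gave a log2 fold change of 1.0 (standard error 0.13, 95% interval 0.72 to 1.29, adjusted p = 0.00092 by edgeR's quasi-likelihood test, Benjamini-Hochberg adjusted). Each Ak5 value rests on 108 to 206 reads. Of the exons, 12 nt also lie on exons of Zzz3, and reads there were left out by the authors' counting. The genes whose levels over the 11 mice were most like those of Ak5 were Csrnp2 (root mean square difference 0.090), Pemt (0.096) and Ift81 (0.128), the last encoding a subunit of the intraflagellar transport particle. Each was itself called higher in Rfx2-/- testis, with log2 fold changes of 0.90, 0.86 and 1.01. Since Ak5 differed by genotype without overlap, genes near it on this measure had to differ likewise, so the likeness shows no further link.

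Of the mitochondrial pair, Ak3 varied little between mice and Ak4 varied more. Ak3 (ENSMUSG00000024782; chr19:29020833-29047961, minus strand) had 66.2, 66.5, 69.8, 67.5 and 70.8 CPM in wild type mice 1 to 5 and between 62.7 and 73.8 CPM in Rfx2-/- mice. Its log2 fold change was -0.04 (95% interval -0.16 to 0.07, adjusted p = 0.529 by edgeR's quasi-likelihood test, Benjamini-Hochberg adjusted), which leaves room only for small differences. Scaled by total counts, all genes together moved to a median of -0.22 from -0.05, and every fold change given here is relative to such a shift. Of the 3120 nt of Ak3 exons, 430 nt lie on exons of Cdc37l1 too, where the authors' counting left reads out. Ak4 (ENSMUSG00000028527; chr4:101419277-101466995, plus strand, 4395 nt of exons) had 9.48, 10.1, 13.3, 10.7 and 15.5 CPM in wild type mice 1 to 5 and between 10.5 and 13.1 CPM in Rfx2-/- mice. All Rfx2-/- mice were within the wild type range, and the log2 fold change was -0.09 (95% interval -0.39 to 0.20, adjusted p = 0.600). Wild type mice 3 and 5, low in pachytene markers, held the highest Ak4 values of their genotype, and the sign turned without wild type mouse 5 (0.04).

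**Figure D4:**
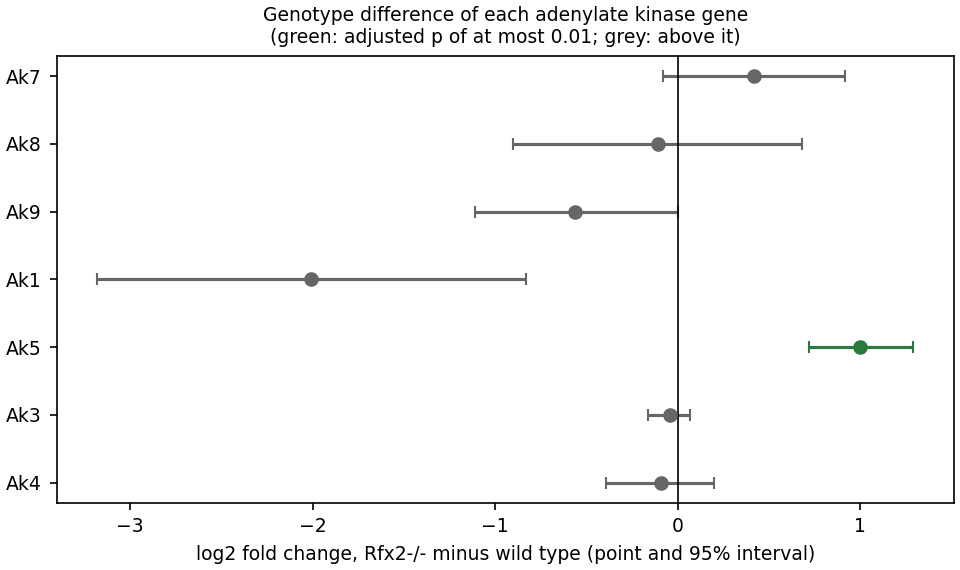
Log2 fold change of each adenylate kinase gene, Rfx2-/- minus wild type, with its 95% interval from edgeR's quasi-likelihood fit. The interval of Ak5 (0.72 to 1.29) lies above 0 and that of Ak1 (-3.18 to -0.83) below 0, while those of Ak7, Ak8, Ak3 and Ak4 include 0 and that of Ak9 ends at 0.00.

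The spread between mice also set the members apart. In wild type testis the highest mouse exceeded the lowest by 5.88-fold for Ak1, 4.13-fold for Ak8, 3.13-fold for Ak9 and 2.77-fold for Ak7, but by 1.64-fold for Ak4, 1.52-fold for Ak5 and 1.07-fold for Ak3. In Rfx2-/- testis the same ratio was 4.86 for Ak1 and 2.09 for Ak8, and between 1.18 and 1.38 for the other 5. Ak9 was thus within 1.31-fold in Rfx2-/- mice. The lowest wild type values of Ak1, Ak5, Ak7, Ak8 and Ak9 were those of mice 3 and 5. Their pachytene marker sums were 3219 and 3150 CPM, whereas the lowest sum of an Rfx2-/- mouse was 6187 CPM. In wild type mice 1, 2 and 4, Ak9 was at 105 to 142 CPM and Ak7 at 90.2 to 117 CPM. The part of maturity in the wider wild type spread was not tested.

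To compare levels between genes, counts were also divided by exon length and given as RPKM, the reads per kilobase of exon scaled by the same library sizes as CPM. Ak8 led in wild type testis with 51.8 ± 29.2 RPKM (SD, n = 5), followed by Ak7 at 25.9 ± 9.72, Ak3 at 21.9 ± 0.666, Ak1 at 14.7 ± 10.7 and Ak9 at 13.5 ± 5.82 RPKM. Neighbours among these 5 overlapped between mice, although Ak8 was above Ak7 in all 5. Ak4 at 2.69 ± 0.577 RPKM and Ak5 at 1.21 ± 0.213 RPKM were each apart from the gene before. In Rfx2-/- testis Ak8 (48.0 ± 14.3 RPKM, SD, n = 6) and Ak7 (34.6 ± 4.26) overlapped, Ak3 (21.2 ± 1.37) was apart from both neighbours, and Ak9 (9.17 ± 0.995) came before Ak1 (3.65 ± 2.61), Ak4 (2.52 ± 0.223) and Ak5 (2.43 ± 0.192), which overlapped in sequence.

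Summed over the 7 genes, the axonemal pair made up 47.7% to 63.0% of the RPKM in wild type mice and 62.9% to 71.1% in Rfx2-/- mice. Mean log2 CPM of Ak7 and Ak8 exceeded that of the other 5 by 2.05, 1.86, 1.33, 1.77 and 1.03 in wild type mice 1 to 5 and by 1.92 to 2.33 in Rfx2-/- mice, so that the genotypes overlapped. The means of 1.61 ± 0.418 (SD, n = 5) and 2.17 ± 0.169 (SD, n = 6) were 0.56 apart. With Ak1 left out of the other members, a choice made after the values were seen, the distance was 0.16, and without wild type mice 3 and 5 it was 0.28. No test of this difference was made, since this gene family was picked for description with earlier results of these data known.

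Other genes of phosphoryl transfer lay on both sides of 0. A list of 36 genes held a further pair of adenylate kinases, nucleoside and nucleotide kinases, creatine kinases, AMP deaminases, subunits of AMP-activated kinase and 5′-nucleotidases. It also held 3 genes listed as axonemal partners of adenylate kinases. Of the 36 genes, 30 were tested, 1 was called lower and 0 higher. In log2 fold change 17 were below and 13 above 0, with a median of -0.15 beside -0.05 for all genes tested. At an unadjusted p under 0.05, 8 were lower and 5 higher, DESeq2 called 2 lower and 2 higher, and limma voom 3 and 0, to be read against the shares of all genes given above for these tools. The gene called was Ckmt2, the sarcomeric mitochondrial creatine kinase, with 151, 110, 28, 73 and 35 reads in wild type mice 1 to 5 and 0, 0, 2, 4, 1 and 0 reads in Rfx2-/- mice 6 to 11. These are 2.70 ± 1.88 CPM (SD, n = 5) and 0.0523 ± 0.0716 CPM (SD, n = 6). In 5 of 6 Rfx2-/- mice it was at or under a floor of 3 counts, which covers counting error only, so no fold change is given. Ckmt2 passed the filter on low counts through its wild type reads alone and therefore had to differ, so its call is no support for a change of the list.

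Cfap45, Cfap52 and Enkur, listed as axonemal partners of adenylate kinases, were looked at singly after their values were seen. Cfap45, which binds AMP, had 43.4 to 199 CPM in wild type and 37.1 to 82.9 CPM in Rfx2-/- testis (-1.03 on the log2 scale, SE 0.38, adjusted p = 0.0734 by edgeR's quasi-likelihood test, Benjamini-Hochberg adjusted). Values for Cfap52 were 63.6 to 184 CPM and 71.9 to 98.6 CPM (log2 fold change -0.59, adjusted p = 0.105). For Enkur they were 24.0 to 95.7 CPM and 25.8 to 57.1 CPM (log2 fold change -0.60, adjusted p = 0.207). The genotypes overlapped for all 3 and none was called. Nucleoside kinase genes of the list did not share this direction. Log2 fold changes were -0.15 for Nme5, 0.21 for Nme7 and 0.81 for Nme8, with overlap and no call. Nme9, not tested, was at 0.284 to 1.68 CPM in wild type and at most 0.0889 CPM in Rfx2-/- testis.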

How the data were processed

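Testis RNA of 11 mice was analysed. According to the submitters' processing notes, CASAVA 1.8.2, STAR 2.4, featureCounts 1.4.6 and GRCm38 were used. The authors kept uniquely placed reads, counted them on merged exons of protein coding transcripts of each gene, left out reads on exons of different genes, and deposited raw counts without normalization; read length and aligner are given differently in different parts of their methods. Strand use in counting was not given in the sources used here.

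Counts were fitted in R 4.3.3 with edgeR 4.0.16 (filterByExpr by genotype, TMM factors 0.894 to 1.18, glmQLFit and glmQLFTest, no covariates) on all 15745 tested genes, and called at an adjusted p (Benjamini-Hochberg) of at most 0.01 at any fold change. All 7 adenylate kinase genes passed the filter. CPM used TMM-scaled totals, log2 CPM a prior count of 2, and RPKM the merged exon length in GENCODE M21. The standard error was the log2 fold change divided by the root of F. Of the 23074 identifiers, 781 had no symbol there. Alternatives were DESeq2 1.42.0 (size factors and Wald test), limma 3.58.1 voom, total counts, a mean count of at least 50, only a minimum of 1 count in all, a robust prior, other thresholds, a round spermatid score as a covariate, and each mouse left out. Named genes were the 7 members, called genes of the phosphotransfer list, nearest tested neighbours of Ak7 and Ak8, and the 3 nearest genes in centred log2 CPM of Ak7, Ak8 and called members. Members and lists were chosen with earlier results of these data known. Python 3.11.15 was used for tables and plots.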

Additional observations from a re-analysis of the deposited data

Results flagged for a closer look

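In 14 groups of values (7 genes in 2 genotypes), 3 held a mouse far from the others by Dixon's test at the 95% level, which chance would give in about 1 of 20 groups. Ak1 was 20.9 CPM in Rfx2-/- mouse 7, where the next highest of the 6 mice had 8.26 CPM. This mouse also had the highest sum of round spermatid markers, 482 CPM. Ak4 was 13.1 CPM in Rfx2-/- mouse 9, above a next value of 10.7 CPM. In the same mouse Ak5 was 6.80 CPM, below the next lowest value of 8.18 CPM and still above every wild type mouse. The part of the marker levels in these values was not tested.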

How the results depend on the processing

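No paired analysis was possible because the genotypes share no replicate numbers. Ak5 was called higher in all settings run, with log2 fold changes of 0.85 to 1.08, and Ak3 and Ak7 kept their sign and were not called in any. Ak1 stayed lower throughout and was called under the DESeq2 Wald test (-1.98), limma voom (-2.43), the round spermatid covariate (-2.24), an unadjusted p of at most 0.01 or an adjusted p of at most 0.05 (both -2.01). Ak9 was called under voom (-0.72) and without wild type mice 3 and 5 (-0.92). Ak4 turned to 0.05 under voom and 0.15 without wild type mice 3 and 5, and Ak8 to 0.06 without wild type mouse 1 and Rfx2-/- mouse 7. Ak8 was at -0.55 without wild type mice 3 and 5 and at -0.34 under voom. These 2 pairs of mice were chosen after seeing the data. With each mouse left out in turn, the log2 fold changes ranged from -2.49 to -1.51 for Ak1, -0.16 to 0.04 for Ak4, 0.27 to 0.59 for Ak7, -0.29 to 0.21 for Ak8 and -0.72 to -0.36 for Ak9. Ak4 turned without wild type mouse 5 and Ak8 without wild type mouse 1.

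Adenylate kinase genes called lower numbered 0 in the main fit, 2 under voom, and 1 under DESeq2, the covariate, the omission of wild type mice 3 and 5, and both looser thresholds. All genes called lower and higher numbered 305 and 115, against 904 and 1128 under DESeq2, 682 and 367 under voom, 925 and 735 with the covariate, 1604 and 1180 at an unadjusted p of at most 0.01, and 1382 and 968 at an adjusted p of at most 0.05, so the share of lower calls moved too. Leaving out mice gave 184 to 393 lower and 45 to 192 higher, the lowest of both without Rfx2-/- mouse 10. The lower count moved by over 1.5 times without wild type mouse 2 or Rfx2-/- mouse 6, 8 or 10, and the higher count without each mouse except wild type 4 and 5. Phosphotransfer genes called lower numbered 1, against 2 (DESeq2), 3 (voom), 2 (no filter), 0 (mean count of at least 50, where Ckmt2 was not tested), 3 (covariate), 4 (without wild type mice 3 and 5), 3 (unadjusted p), 2 (adjusted p of at most 0.05) and 1 to 2 with a mouse left out (2 without wild type mouse 3). Those called higher numbered 0, against 2 under DESeq2 and both looser thresholds. The axonemal difference of 0.56 was 0.16 without Ak1, 0.42 to 0.68 with a mouse left out, and 0.53 to 0.68 in the other planned settings. Other causes of these shifts were not tested. Ak1 and Ak5 had the lowest read counts of the members, as few as 99 and 108 reads in a mouse. The part of depth was not tested.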
